A study of Mus musculus with 9 samples.

Results

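The 10 genes of calcium release from and uptake into the sarcoplasmic reticulum were followed in nuclei of postnatal mouse ventricles: Ryr2, Ryr3, Trdn, Asph, Casq2, Hrc, Jph2, Atp2a2, Pln and Slc8a1. They were chosen by name, and all 10 were present among the 37840 genes of the count tables. The RNA came from nuclei of C57BL6/J ventricles, captured in droplets with barcoded beads that prime on poly(A) tails. Controls carried 1 lost copy of ERRα and wild-type ERRγ (ERRalphaHet/ERRgammaWT), and knockouts lacked both (ERRalphaKO/ERRgammaKO). These nuclear receptors activate genes of mitochondrial energy metabolism. Of the 9 libraries, 3 came from day 6 controls (control P6), 3 from controls aged 9 to 10 days (control P10) and 3 from knockouts aged 9 to 10 days (KO P10), all counted from birth. How the genes were deleted, and in which cells, is not given in the sources used here. Sex was not determined, per the labels, and they do not state whether each library was made from different mice. The p-values therefore measure only the spread between libraries, which may be technical.

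In a heart muscle cell, calcium entering at the surface opens ryanodine receptors, which release the calcium stored in the sarcoplasmic reticulum and so trigger contraction. The cell relaxes as SERCA2, the product of Atp2a2, pumps calcium back into the store and the sodium-calcium exchanger, the product of Slc8a1, moves the rest out of the cell. This machinery is known to be assembled largely after birth, as surface and store membranes are brought close together in dyads.

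After filtering, 25311 nuclei remained, and each library kept 1788 to 3682 of them. Median depth was 739 to 941 UMIs (unique transcript molecules). Cardiomyocyte-like nuclei, clusters named from sarcomere markers that did not include the 10 genes, numbered 10493 in all and 776 to 1537 per library, with 842583 to 1868195 UMIs per library. Fibroblast-like nuclei numbered 4476, endothelial-like 1860 and endocardial-like 1283. Esrra fell in the cardiomyocyte-like nuclei of knockouts by 2.35 on the log2 scale (adjusted p = 0.000428) and Esrrg by 1.10 (adjusted p = 0.0173, both edgeR). Fibroblast markers made up 0.0767% to 0.0943% of cardiomyocyte-like UMIs in P6 controls, 0.142% to 0.192% in P10 controls and 0.132% to 0.364% in knockouts. RNA of ribosomal proteins made up 0.487% to 0.737% in P6 controls, 0.151% to 0.367% in P10 controls and 0.49% to 0.854% in knockouts, so P10 controls were below both other groups without overlap in that share. Malat1 took 15.2% to 20.8% of cardiomyocyte-like UMIs in P6 controls, 11% to 13% in P10 controls and 6.06% to 14.8% in knockouts. The part of these RNAs in the results was not tested. KO P10 libraries 1 and 2 shared 465 barcodes, and the 464 of them with at least 500 UMIs in library 2 were left out of that library and kept in library 1. Which of the libraries these nuclei belong to is not known. Mitochondrial UMIs separated the ages: they made up 0.888% to 2.61% of a library in P6 controls, 8.56% to 40.8% in P10 controls (highest in library 1) and 7.13% to 14.7% in knockouts, and their part in the age results was not tested. All 3 control P6 libraries, control P10 library 1 and KO P10 library 1 were high in Xist, and the other 4 in Y-linked RNA, so age and sex-linked RNA partly coincide. Cardiomyocyte RNA was found in other nuclei: Ttn, the giant sarcomere protein titin, had a level in fibroblast-like nuclei of 9.76% ± 2.18 of its cardiomyocyte-like level in P6 controls, 27.7% ± 4.85 in P10 controls and 34.5% ± 3.53 in knockouts (SD, n = 3 each).

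Promoter sequences are shown for Ryr2, Jph2 and Hrc, the 3 genes that were higher in P10 controls than in P6 controls. RefSeq's promoter table (GRCm38.p6) matched 6 of the 10 genes: these 3 and Casq2, Pln and Slc8a1. Each sequence holds the 250 bases before the transcription start, 5′ to 3′ on the gene's strand. Capitals mark AGGTCA or its reverse complement, the half-site that many nuclear receptors bind.
Ryr2, chr13:12106946-12107195, minus strand: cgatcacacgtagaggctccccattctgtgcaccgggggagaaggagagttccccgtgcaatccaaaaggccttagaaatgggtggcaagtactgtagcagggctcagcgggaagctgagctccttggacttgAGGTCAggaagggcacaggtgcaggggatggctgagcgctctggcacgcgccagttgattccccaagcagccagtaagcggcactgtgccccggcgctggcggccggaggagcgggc
Jph2, chr2:163397994-163398243, minus strand: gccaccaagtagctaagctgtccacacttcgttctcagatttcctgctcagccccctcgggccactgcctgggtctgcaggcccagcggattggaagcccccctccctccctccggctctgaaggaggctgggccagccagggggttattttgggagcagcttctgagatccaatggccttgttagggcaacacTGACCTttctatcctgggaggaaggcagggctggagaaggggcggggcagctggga
Hrc, chr7:45335019-45335268, plus strand: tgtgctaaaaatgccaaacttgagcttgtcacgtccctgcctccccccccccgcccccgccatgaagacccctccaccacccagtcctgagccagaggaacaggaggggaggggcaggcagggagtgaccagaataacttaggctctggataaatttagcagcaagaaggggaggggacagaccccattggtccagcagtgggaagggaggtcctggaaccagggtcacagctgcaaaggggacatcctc
The longer ERR response element, TNAAGGTCA, ends in that half-site and was searched on both strands. It was found in the windows of 0 of the 6 genes and in 1.14% of all 32851 promoter windows. The half-site alone was found in 2 of the 6 genes, 117 bases before the start of Ryr2 and 56 bases before that of Jph2, and in 14.0% of all windows. The 6 genes had 7 windows, since Jph2 has another listed start. In that window, which is not shown, the half-site lay 76 bases before the start. The Hrc window held neither. A match is a description of letters, and the absence of one covers only this window.

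Levels of the genes were set side by side per kilobase, because long genes collect more UMIs. In cardiomyocyte-like nuclei of control P10, levels per kilobase of gene span were 199 CPM (the usual depth-scaled count unit, here with TMM factors) for Pln, 50.2 for Atp2a2, 48.6 for Hrc, 21.2 for Slc8a1, 20.6 for Ryr2, 12.6 for Casq2, 9.37 for Jph2, 7.26 for Trdn, 1.54 for Asph and 0.0311 for Ryr3. Per kilobase of merged exon the order below Pln changed. Levels were 598 CPM for Pln, 412 for Slc8a1, 402 for Atp2a2, 396 for Ryr2, 308 for Trdn, 277 for Casq2 and 136 for Jph2. Hrc then stood at 70 CPM per kilobase. The deposited counts take exonic and intronic reads together, so neither scale is exact. Asph and Ryr3 were the 2 lowest on both.

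Ryr2 encodes the release channel of heart muscle and lies on chromosome 13 at 11553102-12106945 (GRCm38, minus strand), a span of 553.8 kb. Its level in cardiomyocyte-like nuclei was 6260, 4038 and 3335 CPM in the control P6 libraries and 13920, 8249 and 12050 CPM in P10 controls. In KO P10 libraries 1 to 3 it was 3739, 12440 and 6052 CPM. Every control P10 library was above every control P6 library, while the knockout libraries spread across both. Ryr2 rose with age by 1.33 ± 0.43 on the log2 scale (SE, adjusted p = 0.0428, edgeR). The call was lost without control P6 library 2 (1.25, adjusted p = 0.145) or 3 (1.15, adjusted p = 0.169) and without control P10 library 1 (1.19, adjusted p = 0.0892) or 3 (1.30, adjusted p = 0.116). It was also lost with sex-linked RNA as a term (1.14, adjusted p = 0.11), with at least 1000 UMIs per nucleus (1.31, adjusted p = 0.0505) and with the low-Malat1 clusters described further on added (1.52, adjusted p = 0.0717). Among Xist-high libraries, 1 at P10 against 3 at P6, the difference of mean log2 CPM was 1.67. In knockouts its difference from control P10 was -0.62 ± 0.43 (adjusted p = 0.363), and without KO P10 library 2 it was -1.22 (adjusted p = 0.0783). Within libraries of like sex-linked RNA the knockout difference was -1.9 (Xist-high, 1 against 1) and -0.2 (Y-linked, 2 against 2). KO P10 library 2 stood apart from the other knockout libraries in the same direction for Slc8a1. Among nuclei thinned to 500 UMIs, 82.3% ± 7.49 held a Ryr2 UMI in P6 controls, 97.7% ± 1.5 in P10 controls and 88.2% ± 7.27 in knockouts (SD, n = 3). Without thinning these shares were 91.6%, 99.5% and 94.8%. In thinned fibroblast-like nuclei they were 14.5%, 44.7% and 28%.

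Ryr3, at chromosome 2, 112631355-113217096 (minus strand, 585.7 kb), encodes a ryanodine receptor known from smooth muscle, brain and immature skeletal muscle. In control cardiomyocyte-like nuclei it was barely detected: 23.3, 39.96 and 22.6 CPM in P6 controls and 12.9, 25.6 and 16.2 CPM in P10 controls, resting on 9 to 65 UMIs per library. The KO P10 libraries stood at 72.6, 513 and 265 CPM, from 84, 686 and 279 UMIs. All 3 knockout libraries were above all 6 control libraries, and library 1 was the lowest of the 3. Ryr3 rose in knockouts by 3.89 ± 0.53 on the log2 scale against control P10 (SE, adjusted p = 0.000362, edgeR), ranking 43 by p among 10941 genes. Leaving out any 1 library gave 3.13 to 4.34. Within libraries of like sex-linked RNA, the difference of mean log2 CPM was 2.5 in the Xist-high pair (1 library against 1) and 4.18 in the Y-linked pairs (2 against 2). Between control P6 and control P10 the difference of -0.61 ± 0.55 was not called (adjusted p = 0.461). With sex-linked RNA as a term of the fit it was -2.24 (adjusted p = 0.0109).

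The rise of Ryr3 was seen inside individual cardiomyocyte-like clusters, although the knockouts were made up of different clusters. Cluster 1 held 79.9% of the class in P6 controls, 41.0% in P10 controls and 20.1% in knockouts, cluster 2 held 10.4%, 53.3% and 45.2%, and cluster 5 held 0.314%, 0.526% and 31.9%. Cluster 9, whose nuclei carried cell cycle genes, held 9.41%, 5.15% and 2.8%. These shares pool the libraries of a group. Of the 1014 knockout nuclei in cluster 5, 787 came from library 2, 212 from library 3 and under 50 from library 1. Levels inside a cluster are given as unscaled CPM, without TMM. In cluster 1, Ryr3 stood at 4.6, 25.2 and 8.35 unscaled CPM in the control P10 libraries and 90.5, 211 and 352 in KO P10. In cluster 2 the values were 11.8, 29.5 and 15.8 in control P10 and 78.4, 307 and 221 in KO P10. The groups did not overlap in either cluster. Cluster 5, in the 2 knockout libraries with at least 50 of its nuclei, stood at 548 and 346 unscaled CPM. In the cycling cluster the only knockout library with enough nuclei, library 3, had 36.3 unscaled CPM from 2 UMIs, against 13.6 and 46.8 in control P10 libraries 2 and 3.

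**Figure D1:**
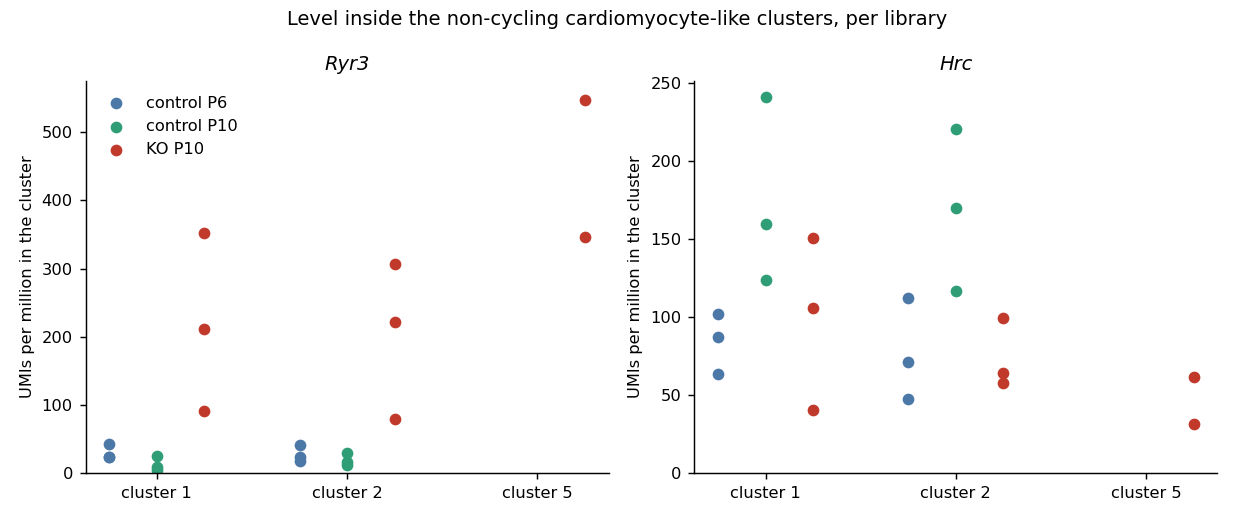
Level of Ryr3 (left) and Hrc (right) in unscaled CPM inside the 3 non-cycling cardiomyocyte-like clusters; each point is a library with at least 50 nuclei in that cluster, coloured by group. Ryr3 in knockouts lies at 78.4 to 352 in clusters 1 and 2, where control P10 libraries do not exceed 29.5, and Hrc in knockouts overlaps control P10 in cluster 1 but not in cluster 2.

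Ryr3 in other nuclei stayed low. Fibroblast-like nuclei held 5, 15 and 8 Ryr3 UMIs in the KO P10 libraries and 1, 10 and 6 in control P10, too few to be tested in that class alone. Thinned to 500 UMIs, 7.92% ± 4.48 of knockout cardiomyocyte-like nuclei held a Ryr3 UMI, against 0.741% ± 0.432 in P10 controls and 1.3% ± 1.18 of knockout fibroblast-like nuclei (SD, n = 3). Without thinning the shares were 12.6%, 1.79% and 1.66%. The genotype effect on Ryr3 was larger in cardiomyocyte-like than in fibroblast-like nuclei by 2.62 ± 0.53 on the log2 scale (adjusted p = 0.00151, edgeR interaction). Of all genes, 2.19% were called in that test. Without control P10 library 2 the call was lost. Relative to Ryr2 UMIs of the same library, Ryr3 stood at 0.0194, 0.0412 and 0.0437 in knockouts and at 0.000925 to 0.0031 in control P10. Ryr2 had more UMIs than Ryr3 in every library. Aven, on the opposite strand, overlaps Ryr3 over 3219 bases, and its own difference in knockouts was -0.73 (adjusted p = 0.243).

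Triadin, junctin and calsequestrin hold the store's calcium at the mouth of the release channel, and none of their genes was called in either comparison. Trdn (triadin; chromosome 10, 33080554-33476709) was 2492, 2131 and 1815 CPM in P6 controls, 2863, 2694 and 3075 in P10 controls and 2246, 2506 and 2780 in knockouts. Control P10 was above control P6 without overlap, yet the difference of 0.42 ± 0.27 did not pass (adjusted p = 0.281). Asph (which also encodes junctin and aspartyl hydroxylase; chromosome 4, 9448069-9669344) was 264, 228 and 251 CPM in P6 controls, 328, 344 and 351 in P10 controls and 213, 333 and 253 in knockouts. Its age difference was 0.47 ± 0.22 (adjusted p = 0.156), and again those groups did not overlap. Casq2, encoding calsequestrin, the calcium buffer of the store (chromosome 3, 102086415-102146514), was 632, 613 and 639 CPM in P6 controls, 682, 762 and 832 in P10 controls and 586, 651 and 595 in knockouts. Knockout Casq2 was below all control P10 libraries, with a difference of -0.31 ± 0.22 (adjusted p = 0.381). Gm43244, a transcript annotated inside Casq2 on the same strand, fell in knockouts by 1.15 on the log2 scale (adjusted p = 0.00299). It was singled out after its value was seen.

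Hrc encodes the histidine-rich calcium binding protein of the store's lumen and lies on chromosome 7 at 45335290-45338974 (plus strand, 3.7 kb). Its level was 106, 55.3 and 76.3 CPM in P6 controls, 140, 158 and 242 CPM in P10 controls and 97.6, 44.1 and 70.2 CPM in knockouts. Control P10 libraries were above all others. Hrc rose with age by 1.20 ± 0.31 on the log2 scale (adjusted p = 0.0147) and fell in knockouts by 1.36 ± 0.31 (SE, adjusted p = 0.00983, edgeR). Both tests use the control P10 libraries. Without control P10 library 3, the highest, the differences were 0.94 (adjusted p = 0.0916) and -1.08 (adjusted p = 0.0784). The age call was also lost without control P6 library 2 (0.99, adjusted p = 0.0888) or 3 (1.19, adjusted p = 0.0668), with class totals in place of TMM (1.06, adjusted p = 0.0501) and with low-Malat1 clusters added (0.97, adjusted p = 0.0701). Those added clusters also ended the knockout call (-0.61, adjusted p = 0.205). Cluster 13, which was among them, held 22.0% of kept barcodes in knockouts and 2.39% in P10 controls. Ribosomal protein RNA, lowest in the P10 controls, moved against Hrc in both comparisons, and its part was not tested. Within libraries of like sex-linked RNA the knockout difference of mean log2 CPM was -0.52 (Xist-high, 1 against 1) and -1.81 (Y-linked, 2 against 2), and the age difference among Xist-high libraries was 0.87. In cluster 2 the knockout values of 99.3, 57.7 and 64.1 unscaled CPM were below the control P10 values of 117, 170 and 221. In cluster 1 they were 151, 40.4 and 106 against 124, 160 and 241, which overlap.

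Hrc UMIs were not limited to cardiomyocyte-like nuclei. At control P10 its level was 173 ± 73.2 CPM in fibroblast-like, 235 ± 64.4 in endothelial-like and 190 ± 81.7 in endocardial-like nuclei, against 180 ± 54.7 in cardiomyocyte-like nuclei (SD, n = 3). Relative to the cardiomyocyte-like level of the same library, the fibroblast-like level was 38.9% ± 32.5 in P6 controls, 102% ± 56.1 in P10 controls and 72.1% ± 35.9 in knockouts. After thinning, 7.97% of cardiomyocyte-like and 8.02% of fibroblast-like nuclei held an Hrc UMI in P10 controls, so the shares were alike in that group. They were 3.84% and 1.26% in P6 controls and 3.31% and 2.78% in knockouts. The genotype difference was of like size in fibroblast-like nuclei, -1.42 ± 0.46 (adjusted p = 0.101), and the test of the difference between the classes gave 0.05 ± 0.32 (adjusted p = 0.973). The part of free RNA in the Hrc results was not tested.

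Jph2 encodes junctophilin, which tethers the surface membrane to the store (chromosome 2, 163336242-163397993, minus strand). It was 364, 241 and 212 CPM in P6 controls, 958, 334 and 444 in P10 controls and 416, 487 and 451 in knockouts. The control groups overlapped, and 1 library, control P10 library 1, was the highest of all 9 libraries. Jph2 rose with age by 1.08 ± 0.34 on the log2 scale (adjusted p = 0.0353, edgeR). Without that library the difference was 0.55 (adjusted p = 0.193), and the call was also lost without control P6 library 2 (adjusted p = 0.134) or 3 (adjusted p = 0.154), without control P10 library 3 (adjusted p = 0.0506) and with class totals in place of TMM (0.89, adjusted p = 0.0501). Among Xist-high libraries, 1 of which is that library, the age difference of mean log2 CPM was 1.86. In knockouts the difference was -0.35 ± 0.33 (adjusted p = 0.529), and it was 0.21 without the same library. Within libraries of like sex-linked RNA it was -1.21 (Xist-high, 1 against 1) and 0.28 (Y-linked, 2 against 2).

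Atp2a2, encoding the pump SERCA2, lies on chromosome 5 at 122453513-122502225 (minus strand). Its levels were 1914, 1043 and 1453 CPM in P6 controls, 2962, 2019 and 2349 in P10 controls and 2139, 1510 and 1759 in knockouts. Control P10 libraries were above control P6, with a difference of 0.73 ± 0.30 that did not pass (adjusted p = 0.0955, edgeR). DESeq2 gave 0.76 for the same contrast (adjusted p = 0.0359). The knockout difference was -0.44 ± 0.30 (adjusted p = 0.354). Gm43359, on the same strand inside Atp2a2, rose with age by 1.42 (adjusted p = 0.00979) and was singled out after its value was seen.

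Pln encodes phospholamban, the inhibitor of SERCA2 (chromosome 10, 53337667-53345987, plus strand). It was 2363, 1155 and 1542 CPM in P6 controls, 1792, 1459 and 1702 in P10 controls and 1609, 1663 and 1783 in knockouts. All 3 groups overlapped, and the fitted differences were -0.03 ± 0.29 with age (adjusted p = 0.95) and 0.03 ± 0.29 in knockouts (adjusted p = 0.959). Pln lies inside Cep85l, which is on the opposite strand, and without strand information their reads cannot be told apart. Cep85l was counted as a gene of its own, with 1571 UMIs in cardiomyocyte-like nuclei over all libraries. Pln had 6197 there in P6 controls, 6991 in P10 controls and 5968 in knockouts. The part of Cep85l reads in the Pln level was not tested.

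The ratio of Pln to Atp2a2 UMIs within a library separated the control ages. It was 1.23, 1.11 and 1.06 in P6 controls, 0.605, 0.723 and 0.725 in P10 controls and 0.752, 1.1 and 1.01 in knockouts. Every control P10 library was below every other library. Each contrast had p = 0.1 in a 2-sided exact permutation test, the smallest that 3 libraries against 3 allow, and 0.167 after adjustment over the 10 ratio contrasts tested.

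Slc8a1 encodes the sodium-calcium exchanger of the surface membrane (chromosome 17, 81373105-81738377, minus strand, 365.3 kb). It was 4165, 7129 and 4465 CPM in P6 controls, 7768, 6792 and 8716 in P10 controls and 7586, 18550 and 11150 in knockouts. The groups overlapped in both comparisons. The age difference was 0.56 ± 0.38 (adjusted p = 0.311) and the knockout difference 0.68 ± 0.38 (adjusted p = 0.258). KO P10 library 2 was the highest of all 9, and without it the knockout difference was 0.28 (adjusted p = 0.705).

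**Figure D2:**
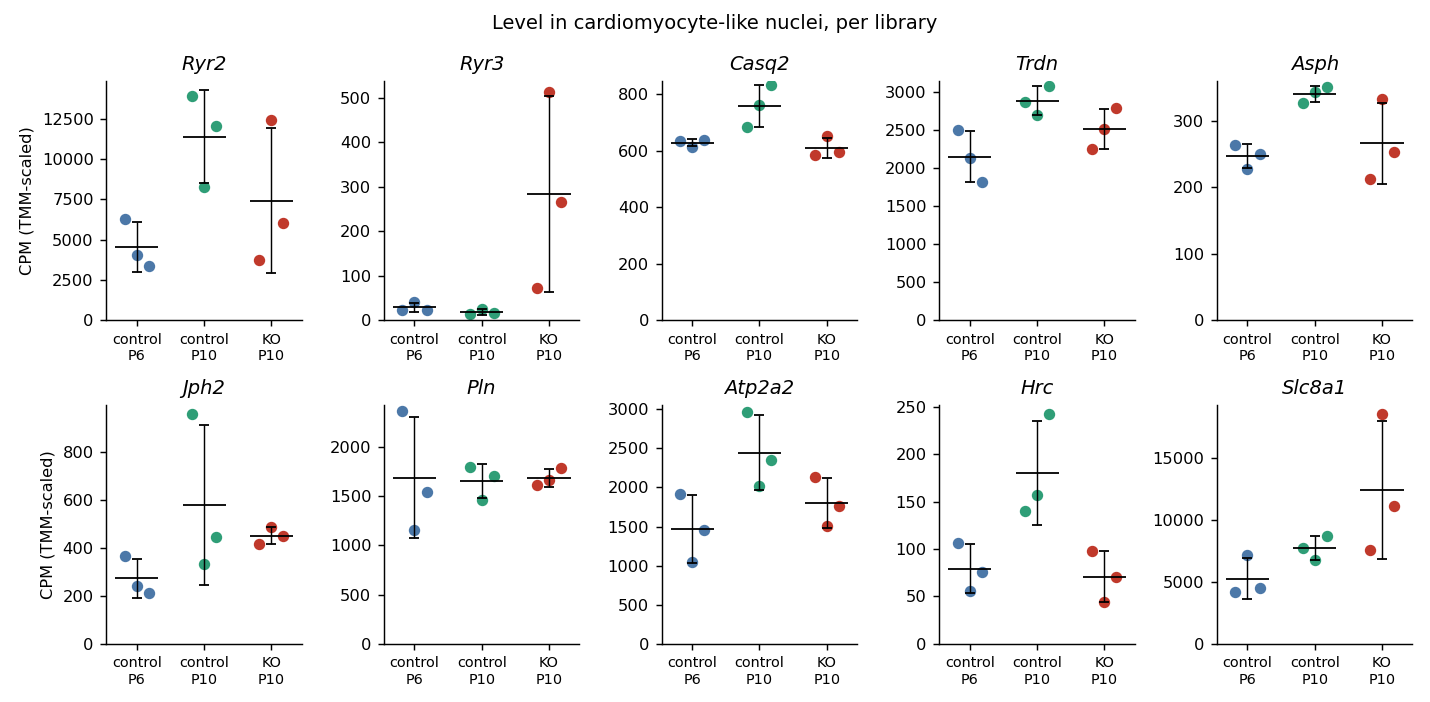
Level of the 10 genes in cardiomyocyte-like nuclei, in TMM-scaled CPM on linear axes that start at 0; points are libraries, black lines and bars the mean and SD of the 3 libraries of a group. Ryr3 is raised in all 3 knockout libraries, Hrc is highest in the control P10 libraries, and 1 control P10 library lies far above the rest for Jph2.

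Counted together, 3 of the 10 genes were higher in P10 controls than in P6 controls in cardiomyocyte-like nuclei (Ryr2, Jph2, Hrc) and 0 lower, by edgeR's adjusted p. Of all 10941 genes tested, 8.54% were called higher, 9.08% lower and 17.6% in either direction. At an unadjusted p under 0.05, 4 of the 10 were higher and none lower. Many genes pass that looser threshold. Atp2a2 (unadjusted p = 0.0245) ranked 2801 of the 10941 by p, and Asph, just over the threshold at 0.0526, ranked 3686 (edgeR). DESeq2 called 4 of the 10, where it called 906 of all genes higher and 820 lower. The median difference of the 10 was 0.51 on the log2 scale, against -0.04 over all genes. The count depended on single libraries: it was 0 without control P6 library 2, 0 without control P6 library 3, 0 without control P10 library 3 and 1 without control P10 library 1. Scaling by class totals in place of TMM moved the median of all genes from -0.04 to -0.19 and the share of higher among called genes from 48.5% to 36.4%. In knockouts, 1 of the 10 was higher (Ryr3) and 1 lower (Hrc), where 6.58% of genes were called higher and 6.09% lower, 12.7% in all. The median difference there was -0.33, against 0.01 over all genes.

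In the other classes most of the genes tested were called with age, and their median differences were 1.68 in fibroblast-like, 1.75 in endothelial-like and 1.6 in endocardial-like nuclei. In fibroblast-like nuclei 8 of the 9 genes tested were called, all higher (all but Asph), where 13.3% of genes were called, 6.65% higher and 6.66% lower. Ryr2 there rose by 2.28, Casq2 by 1.68, Atp2a2 by 1.74 and Slc8a1 by 1.18 on the log2 scale. In endothelial-like nuclei 8 of 9 were called higher (all but Pln) against 25.6% of genes, 13% higher and 12.6% lower. In endocardial-like nuclei 7 of 9 were (all but Asph and Jph2) against 8.17%, 3.97% higher and 4.2% lower. Without 1 library the fibroblast-like count was 5 (without P6 control library 2 or 3, and without P10 control library 3), and the endocardial-like count 3 without control P10 library 3 and 4 without control P6 library 2 or 3. How many of all genes were called with those libraries left out was not counted. The counts in these classes moved with cardiomyocyte RNA in those nuclei. Ttn made up 0.073% to 0.105% of fibroblast-like UMIs in P6 controls and 0.353% to 0.687% in P10 controls. The part of cardiomyocyte RNA in these counts was not tested. In knockouts 0 of 9 were called by edgeR in each of these classes, where few genes were called at all. These were 3.75% of genes in fibroblast-like nuclei (2.15% higher, 1.6% lower), 2.59% in endothelial-like nuclei (1.62% higher, 0.979% lower) and 2% in endocardial-like nuclei (1.24% higher, 0.757% lower). At an unadjusted p under 0.05 there were 3 in fibroblast-like, 2 in endothelial-like and 3 in endocardial-like nuclei. More of all genes pass that looser threshold. By edgeR's p, Casq2 in fibroblast-like nuclei (unadjusted p = 0.0395) ranked 1216 of 8511 genes. Hrc in endothelial-like nuclei (0.0324) ranked 789 of 6129, and Casq2 in endocardial-like nuclei (0.0472) ranked 510 of 4359. DESeq2 called 0, 1 and 0, and its calls over all genes in these classes were not counted.

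The age difference itself differed between cardiomyocyte-like and fibroblast-like nuclei for 6 of the 10 genes, where 2.11% of all genes were called. Each was smaller in cardiomyocyte-like nuclei: Casq2 by 1.55 on the log2 scale, Trdn by 1.40, Hrc by 1.31, Pln by 1.20, Ryr2 by 1.17 and Atp2a2 by 1.14, with adjusted p from 2.57e-05 for Casq2 to 0.0499 for Hrc (edgeR interaction). In the genotype contrast, Casq2 was called besides Ryr3, at -0.83 ± 0.22 (adjusted p = 0.022). Casq2 in knockouts was -0.31 in cardiomyocyte-like nuclei and 0.51 in fibroblast-like nuclei, neither called alone. Of these 2 calls, 0 were left without control P10 library 2, 1 without control P10 library 3 and 1 without KO P10 library 2.

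**Figure D3:**
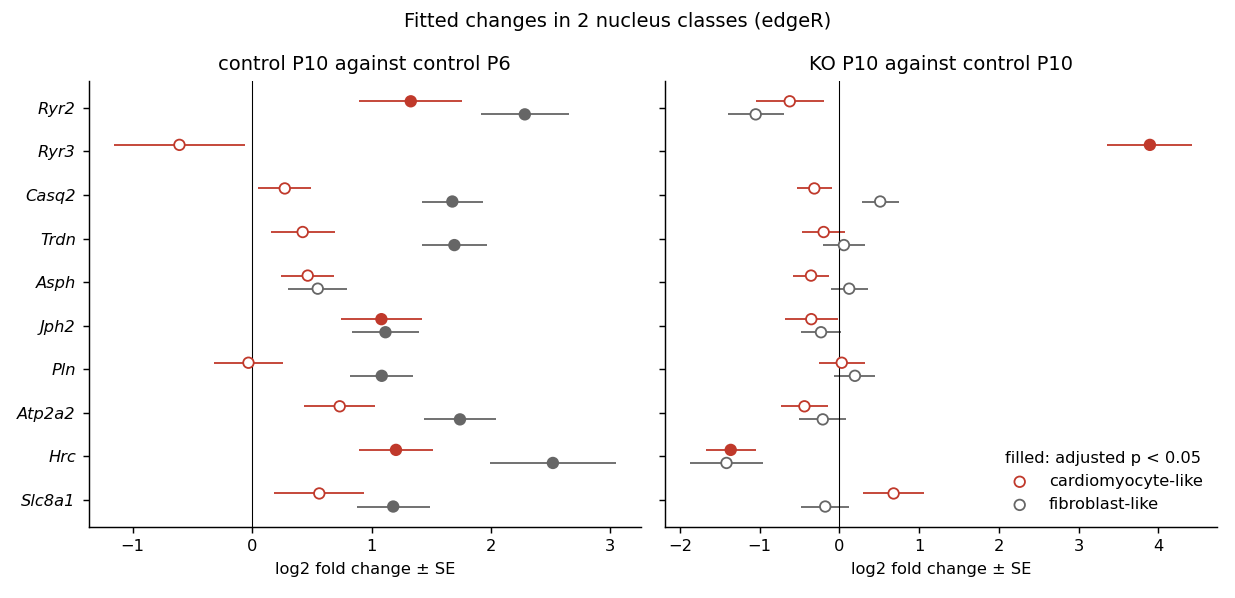
Fitted log2 fold changes with SE in cardiomyocyte-like (red) and fibroblast-like (grey) nuclei, control P10 against control P6 (left) and KO P10 against control P10 (right); filled points have adjusted p under 0.05, and Ryr3 could not be tested in fibroblast-like nuclei. With age 8 fibroblast-like values are called and 3 cardiomyocyte-like ones; in knockouts only the cardiomyocyte-like values of Ryr3 (3.89) and Hrc (-1.36) are.

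How far each gene's level in fibroblast-like nuclei followed that of Ttn differed between genes. At control P6, where Ttn stood at 9.76% of its cardiomyocyte-like level, Ryr2 stood at 6.68% ± 1.52, Trdn at 12.0% ± 1.23 and Casq2 at 13.4% ± 1.06. Atp2a2 at 28.5% ± 4.76 and Asph at 41.8% ± 4.12 were higher. At control P10, with Ttn at 27.7%, Ryr2 was at 14.3% ± 2.7, Pln at 49.2% ± 8.43 and Atp2a2 at 60.1% ± 11.5. Ryr3 fell outside this order: its fibroblast-like level was 77.0% ± 21.3 of the cardiomyocyte-like level in P6 controls, 53.7% ± 16.5 in P10 controls and 9.95% ± 3.26 in knockouts (SD, n = 3). The control percentages rest on 1 to 10 fibroblast-like Ryr3 UMIs per library.

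**Figure D4:**
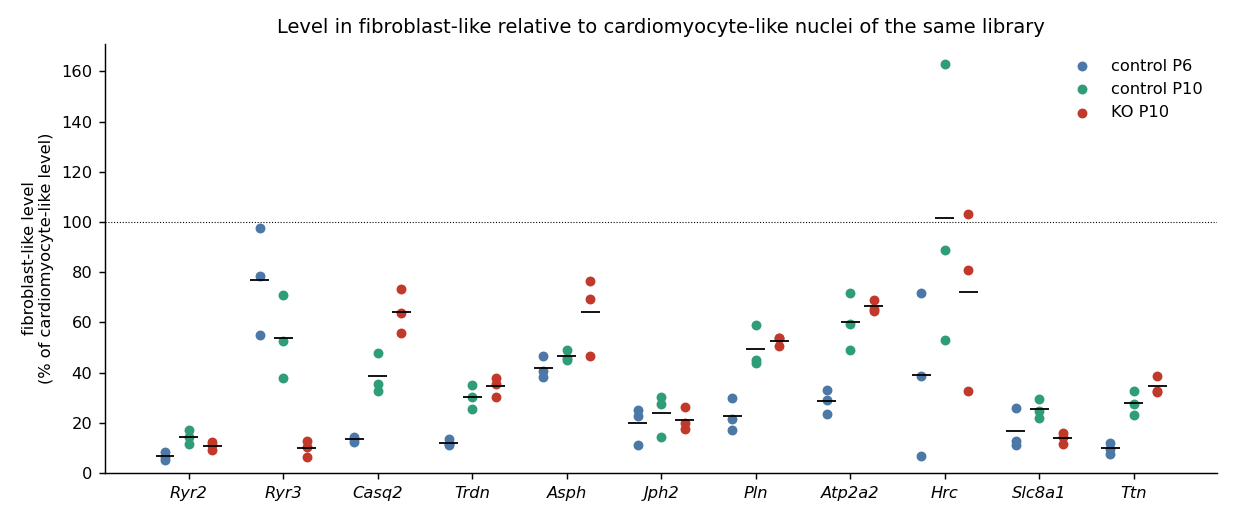
Level in fibroblast-like nuclei as a percentage of the level in cardiomyocyte-like nuclei of the same library, for the 10 genes and Ttn; points are libraries, short lines group means, and the dotted line marks equal levels. Ryr2 stays near or under the level of Ttn, Hrc reaches 102% on average in P10 controls, and Ryr3 drops to 9.95% in knockouts.

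Barcodes low in Malat1, an RNA kept in nuclei, formed 3 unnamed clusters with markers of cardiomyocytes, fibroblasts and macrophages. They took 11.7% ± 2.4 of barcodes in P6 controls, 22.6% ± 6.79 in P10 controls and 33.8% ± 10.3 in knockouts, with 45.4% in KO P10 library 1. The 10 genes differed widely in how their level there compared with cardiomyocyte-like nuclei of the same library. Hrc was higher in the low-Malat1 barcodes in all 9 libraries (ratio 2.47 to 8.02, median 3.43), as were Atp2a2 (median 2.25), Pln (median 2.1) and Casq2 (median 1.43). Slc8a1 was lower in all 9 (ratio 0.0356 to 0.186, median 0.0954), as was Ryr2 (0.183 to 0.307, median 0.202). Trdn (median 0.93), Asph (median 1.02) and Jph2 (median 0.742) lay on both sides of 1. The 4 genes with the shortest spans, 3.7 to 60.1 kb, were the 4 that were higher there in every library. Jph2, the next at 61.8 kb, was higher in only 1 library. Trdn at 396.2 kb was higher in 3 and Ryr3 at 585.7 kb in 4, so beyond those 4 genes the ratios did not follow span. Ryr3 had a ratio of 0.743 to 2.07 in controls and of 0.093 to 0.26 in knockouts. Of the low-Malat1 clusters, cluster 0 scored highest for cardiomyocyte markers, and cluster 13 for fibroblast markers with cardiomyocyte and macrophage markers as rivals. Cluster 0 held 10.3% of barcodes in P6 controls, 4.16% in P10 controls and 1.25% in knockouts. Cluster 13 held 0.511%, 2.39% and 22.0%. Cluster 11 scored highest for fibroblast markers, with pericyte and macrophage markers as rivals, and held 1.13%, 14.7% and 11.1%. The ratios above pool all 3 clusters. They set a mixture of cell types, whose make-up differed between the groups, against cardiomyocyte-like nuclei. Adding clusters 0 and 13 to the class left Ryr3 called in knockouts (3.39, adjusted p = 0.00132) and ended the call of Hrc, as given above. The part of their uneven shares was not tested.

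**Figure D5:**
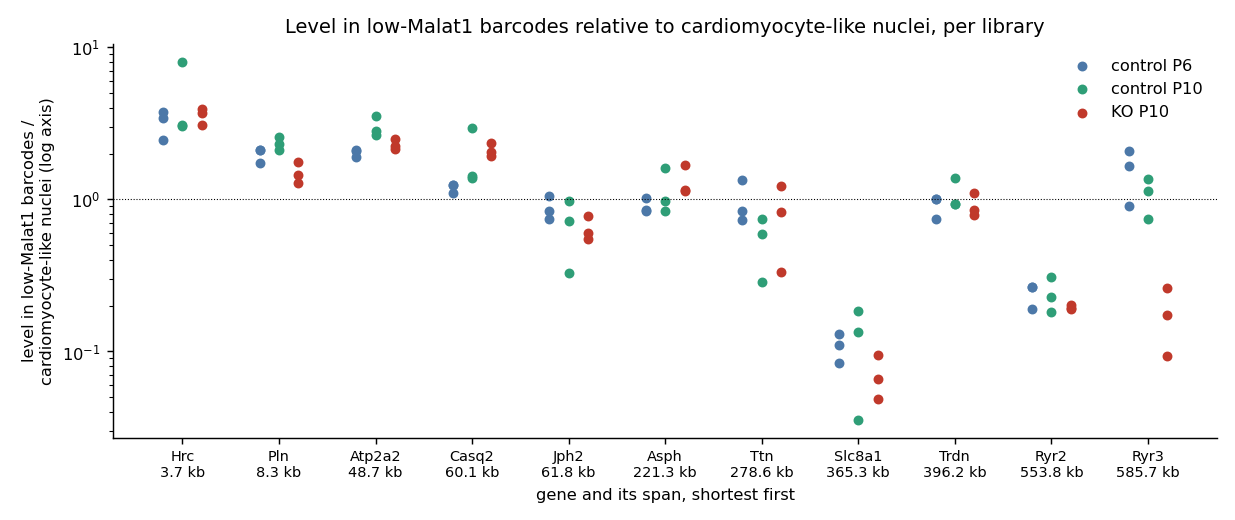
Level in low-Malat1 barcodes divided by the level in cardiomyocyte-like nuclei of the same library, on a log axis, with genes ordered by the span of the gene in kilobases; points are libraries, and the dotted line marks equal levels. Hrc, Pln, Atp2a2 and Casq2 lie above 1 in every library, and Slc8a1 and Ryr2 below it.

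Summed over every barcode, which mixes changes within cells with changes in the share of cell types, 7 of the 10 genes were called higher in P10 controls than in P6 controls (all but Ryr3, Pln and Slc8a1), where 23.9% of genes were called, 10.8% higher and 13.1% lower. Without control P6 library 2 the count was 4. In knockouts only Ryr3 was called, at 2.85 ± 0.46 (adjusted p = 0.00128), where 16.3% of genes were, 9.47% higher and 6.86% lower. Hrc was at -0.95 ± 0.32 (adjusted p = 0.0569), and DESeq2 called 2 of the 10. In these sums fewer cells of a type and less RNA per cell cannot be told apart. They also hold the low-Malat1 barcodes, where Hrc was at 2.47 to 8.02 times its cardiomyocyte-like level. The 465 barcodes shared by KO P10 libraries 1 and 2 are in the sums of both. The part of these barcodes was not tested.

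Other genes of the release site were counted in cardiomyocyte-like nuclei from a list of dyad partners, of which 23 of 26 were tested. With age 8 rose and 1 fell, where 8.54% of all genes were called higher and 9.08% lower. Cacna1c, which encodes the L-type channel pore whose calcium triggers release, rose by 1.88 ± 0.38 on the log2 scale (adjusted p = 0.0042), and its subunit Cacnb2 by 1.37 ± 0.33. Akap6, an anchor of protein kinase A, rose by 1.42 ± 0.33 and the phosphodiesterase gene Pde3a by 1.52 ± 0.32. The median of the list was 0.49. With age it was 0.59 in fibroblast-like, 0.98 in endothelial-like and 0.80 in endocardial-like nuclei, so the rise was not limited to cardiomyocyte-like nuclei. The part of cardiomyocyte RNA in those other nuclei was not tested. In knockouts 3 of the 23 rose and 1 fell, a share near the 12.7% called over all genes. Among them, Calm3 (1.07 ± 0.26) encodes calmodulin, S100a1 (1.13 ± 0.29) another calcium sensor that binds the channel, and Speg (-1.04 ± 0.26) a kinase of the release site.

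Of 14 genes of uptake and the store's lumen 8 were tested, and with age 1 rose and 1 fell, where 17.6% of all genes were called. Ppp1cb, a catalytic subunit of protein phosphatase 1, rose by 0.78 ± 0.24, and Ppp1r1a, an inhibitor of that phosphatase, fell by 2.13 ± 0.49 from 13.4 to 3.26 CPM. In knockouts Calu (0.70 ± 0.21) and Rcn1 (1.22 ± 0.38), related luminal calcium-binding proteins, were the 2 of the 8 that rose, and none fell, where 6.58% of all genes were called higher and 6.09% lower. The list's median was 0.50 there, against 0.01 over all genes.

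Of 10 genes of calcium extrusion and the sodium pump 7 were tested. With age 1 rose and 1 fell (17.6% of all genes were called), and in knockouts 1 rose and 2 fell (12.7% of all genes were called). Fxyd1, a regulator of the sodium pump, fell with age by 1.39 ± 0.29 on the log2 scale. In knockouts Atp2b2, a plasma membrane calcium pump, fell by 3.59 ± 0.57 from 27.1 to 2.18 CPM. Its control P10 libraries spread widely (SD 18.1), and the knockout level was close to 0 (SD 1.08), so the size of this fall is imprecise. Atp1b1, a subunit of the sodium pump, rose in knockouts by 0.89 ± 0.27. Of the IP3 receptors and store-operated entry genes, 5 of 8 were tested. With age 1 of the 5 was called and in knockouts 2, against the same shares of 17.6% and 12.7% over all genes. Itpr1 rose with age by 1.28 ± 0.25 and fell in knockouts by 1.05 ± 0.25, and Itpr2 fell in knockouts by 0.89 ± 0.21. The age and knockout comparisons share the control P10 libraries.

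The genes whose pattern over the 9 cardiomyocyte-like sums was nearest to that of a called gene were named from 3391 genes, by the root mean square difference of centred log2 levels. For Ryr3 these were Acta1, skeletal muscle actin, at 0.54, Nespas at 0.62 and Col4a4 at 0.67. For Ryr2 they were D830032E09Rik at 0.18, Kbtbd12 at 0.23 and Ablim1 at 0.25. Jph2 was nearest to Ctnna1, a catenin of the intercalated disc, at 0.17, 4932438A13Rik at 0.18 and Fhod3 at 0.19. Hrc was nearest to Dach1 at 0.27, Mtus1 at 0.30 and Asb14 at 0.33. The distances of Ryr3 were the widest of the 4.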

How the data were processed

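For each of 9 libraries the authors deposited a table of raw UMI counts (genes by barcodes), exonic and intronic reads together per the file names. The submitters' processing notes name the aligner STAR 2.5.2a and the build mm10. The gene annotation, the use of strand and the rule that kept 3000 or 4000 barcodes per library are not given in the sources used here. Gene positions are from GENCODE vM21 (GRCm38).

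Mitochondrial genes, barcodes with under 500 UMIs, barcodes of KO P10 library 2 shared with library 1, and the top 5% of Scrublet scores per library were left out (scanpy 1.11.5). Each nucleus was scaled to 1000 UMIs before logs were taken. Clustering used 2000 variable genes, none of them among the 10 described, centred within libraries. With 30 principal components and 15 neighbours per nucleus, the Leiden method (resolution 1.0, random seed 1, igraph 0.11.9) found 14 clusters, 4 of which stayed unnamed. A name needed 3 markers raised 1.5-fold and no unrelated rival class above both 0.5 log2 and 0.5 of the best score. After the data were seen it was added that markers need 50 CPM, that red cell genes name no cluster, and that clusters with Malat1 under 40% of the median over clusters stay unnamed. Names are rebuilt here and may differ from the study's.

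UMIs were summed per library and class. The total per class and library limits the precision: the smallest cardiomyocyte-like sum held 842583 UMIs. Sums were tested with edgeR 4.0.16 (R 4.3.3; quasi-likelihood F test, 2-sided, TMM, filterByExpr, 1 fit of 9 libraries, threshold 0.05 on Benjamini-Hochberg values over all genes tested). Class by group interactions used the library as a block. CPM are edgeR's, and values inside clusters and low-Malat1 barcodes are CPM without TMM factors. The script was tested on simulated counts. All 10 genes were described in every comparison. Of each of 4 gene lists, counts and at most the 4 called genes with the smallest p were named. Some genes of these lists enter the counts and are not reported here by name. Genes, lists and tests were chosen with earlier results of these data known. Alternatives were DESeq2 1.42.0, other scaling, filters, classing and clustering, sex-linked RNA as a term, a replicate block and leaving out each library. Leaving out the cycling cluster was added after the data were seen. Tests of pericyte-like, macrophage-like and epicardial-like nuclei were not made, since some libraries held under 50.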

Additional observations from a re-analysis of the deposited data

Results flagged for a closer look

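Effects that differed between cardiomyocyte-like and fibroblast-like nuclei by an interaction test (edgeR, adjusted p under 0.05) are given as the cardiomyocyte-like minus the fibroblast-like log2 difference. For age in controls they were -1.17 for Ryr2, -1.55 for Casq2, -1.40 for Trdn, -1.20 for Pln, -1.14 for Atp2a2 and -1.31 for Hrc. For the knockout contrast at P10 they were 2.62 for Ryr3 and -0.83 for Casq2. Beside the age values, Ttn in fibroblast-like nuclei went from 9.76% to 27.7% of its cardiomyocyte-like level, and the part of that RNA in these values was not tested.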

How the results depend on the processing

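The rise of Ryr3 in knockouts was called under every alternative run, from 3.13 without KO P10 library 2 to 4.34 without KO P10 library 1. Leaving out 1 library at a time gave 0 to 4 of the 10 genes called for age in cardiomyocyte-like nuclei (737 to 2286 genes in all) and 1 to 2 for the knockout (517 to 1317 genes). The same ranges for age were 5 to 8 in fibroblast-like nuclei, 3 to 7 in endocardial-like nuclei and 4 to 7 over all barcodes. For the knockout they were 0 to 1 in fibroblast-like and in endocardial-like nuclei, 1 to 2 over all barcodes and 0 to 2 for the interaction. Under the alternatives, genes called in all were counted only for cardiomyocyte-like nuclei. Elsewhere, a loss among the 10 genes and a weaker test over all genes cannot be told apart. For age, class totals without TMM left 1 of the 10 called (Ryr2), and adding low-Malat1 clusters left 1 (Jph2). With those clusters the knockout count was 1 (Ryr3), with 2858 genes called. Nuclei classed by their own marker UMIs gave 1266 genes for age and 879 for the knockout, and at least 1000 UMIs per nucleus gave 1192 for age. DESeq2 called 1 of the 10 in knockout endothelial-like nuclei and 2 over all barcodes. The age call of Ryr2 was also lost at 1000 UMIs (adjusted p = 0.0505) and with sex-linked RNA as a term (0.11). The cause of these moves was not tested, except that leaving out libraries leaves fewer samples.

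Same-numbered libraries did not deviate together: their correlations ran from -0.15 to 0.256, with 2 of 9 over 0.1. They share only a number. With the replicate block, 4 of the 10 were called for age in cardiomyocyte-like nuclei, with 2043 genes in all, 2 of the 10 for the knockout, with 1426 genes, and 2 of the 10 over all barcodes in knockouts. Ryr3 in controls rests on 9 to 65 UMIs per library, which limits the precision of its fold change.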
